A study of Macaca nemestrina with 15 samples.

Results

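The genes described here encode 2 cytokines that keep B cells alive and the 3 receptors that bind them: TNFSF13B (BAFF), TNFSF13 (APRIL), TNFRSF13C (BAFF-R), TNFRSF13B (TACI) and TNFRSF17 (BCMA). They were chosen by an exact match of the gene name, and all 5 were present among the 28865 features of the count table. The libraries were bulk RNA-seq of peripheral blood mononuclear cells (PBMCs) from 5 female pig-tailed macaques (Macaca nemestrina), Z15228, Z13076, Z15339, Z15303 and Z15408. All 5 animals received islatravir (ISL), a nucleoside reverse transcriptase translocation inhibitor, by mouth at 30 mg/kg once a week for 12 weeks. Each animal gave a library before treatment (pre-treatment), after the 12 weekly doses (week 12) and again after dosing had ended (labelled week 18), so that there were 5 libraries per time point and 15 in all. There were no untreated animals, so an effect of ISL cannot be told apart from any other change between the dates, and ages were not given in the sources used here.

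BAFF and APRIL are members of the tumor necrosis factor superfamily and are made largely by monocytes, dendritic cells and other myeloid cells. BAFF-R binds BAFF alone and keeps mature naive B cells alive. TACI binds both ligands and is found on memory, marginal zone and activated B cells, while BCMA, which binds APRIL most tightly, belongs to plasmablasts and plasma cells. The receptors pass their signal through TRAF adaptors to the NF-kappa-B factors. The libraries measured transcripts and not the soluble cytokines.

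Total counts ranged from 5610597 to 10379572 per library. The lineage genes of a PBMC preparation were present in every library: CD79A of B cells at 50.7 to 392 CPM (counts scaled to the effective size of the library), CD3D of T cells at 314 to 655 CPM and CD14 of monocytes at 237 to 1178 CPM. The library names carry dates that place the later samples 56 or 57 and 84 days after the first, which is not 12 and 18 weeks. How many weekly doses preceded the second sample is therefore uncertain. By these dates the third sample was taken 27 or 28 days after the second, and the study's texts do not give its time since the last dose in a single way. Z15303, Z15339 and Z15408 share the same 3 dates. Each time point was compared with the others across 12880 features that passed a filter on low counts. Without a term for the animal, edgeR's quasi-likelihood test with Benjamini-Hochberg adjustment called 0 of the 12880 features (0% in each of the 3 comparisons), and 0 of the 4 members tested. At an unadjusted p under 0.05, 207 features (1.61%) passed at week 12 vs. pre-treatment, 218 (1.69%) at week 18 vs. pre-treatment and 65 (0.505%) at week 18 vs. week 12, none of them a member. With the animal as a block, the same test at an unadjusted p under 0.05 gave 604 features (4.69%), 754 (5.85%) and 279 (2.17%), and after adjustment 1 (0.00776%), 1 (0.00776%) and 0 (0%), none of them a member. At the unadjusted p TNFRSF13B passed at week 12 and at week 18 and TNFSF13 passed at week 18. For the members, fold changes from pre-treatment without and with the animal block are given below, because the block moved the spread of these genes. For other named genes only the blocked fold changes are given. Both later time points were set against the same pre-treatment libraries.

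TNFRSF13B, which encodes TACI, was lower at both later time points in all 5 animals, with means of 13.8 ± 13.47 CPM before treatment, 6.53 ± 6.60 CPM at week 12 and 5.27 ± 4.81 CPM at week 18 (SD, n = 5). The animals started at very different levels. In Z15228 it went from 35.4 CPM to 16.8 CPM and 10.6 CPM, and in Z15339 from 18.7 CPM to 9.32 CPM and 10.3 CPM. The other 3 animals had little TNFRSF13B to begin with. Z13076 went from 5.10 CPM to 1.45 CPM and 2.44 CPM, Z15408 from 4.91 CPM to 3.83 CPM and 2.68 CPM, and Z15303 from 4.78 CPM to 1.26 CPM and 0.351 CPM. The time points therefore overlapped as groups although every animal was below its own starting value. The highest library stood 7.40-fold above the lowest before treatment, 13.3-fold at week 12 and 30.1-fold at week 18, and the last of these rests on 2 counts in Z15303.

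**Figure D1:**
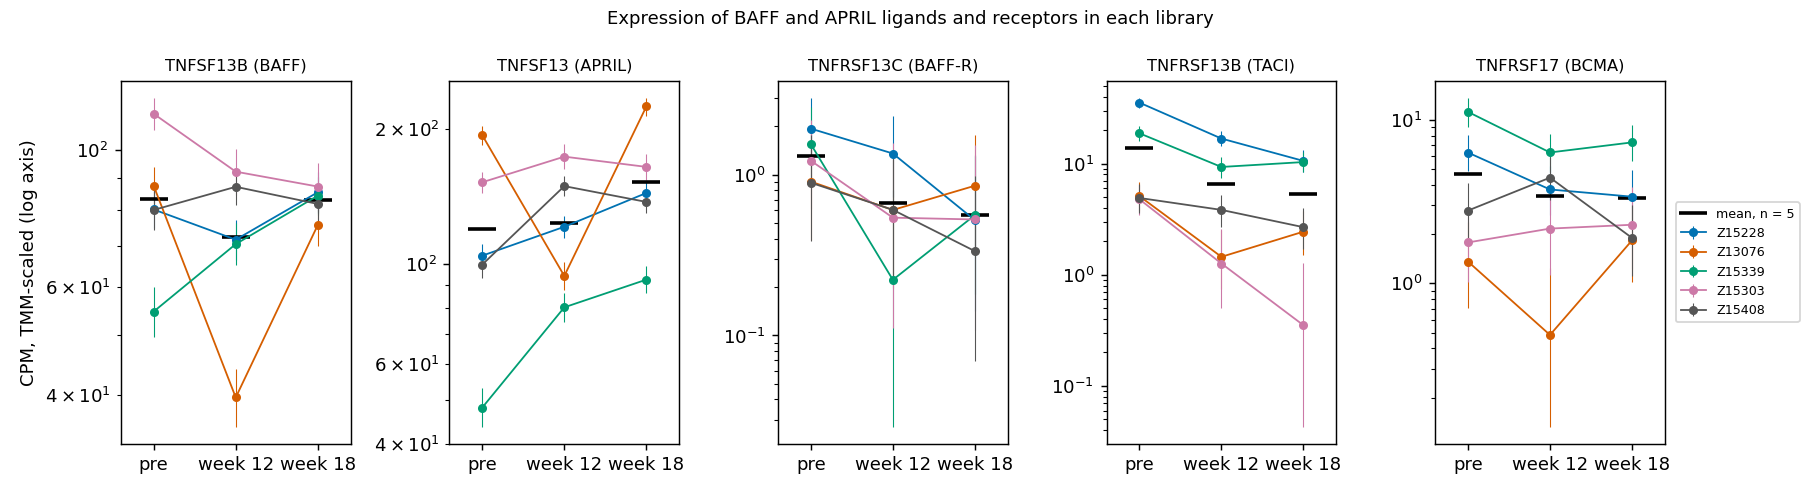
Expression of the 5 genes in each library, in TMM-scaled CPM on a log axis, at pre-treatment, week 12 and week 18. Coloured points and lines are the 5 animals, vertical bars are exact Poisson 95% intervals of the counts (counting error only), and black dashes are the means of 5 libraries. TNFRSF13B was below its pre-treatment value in 5 of 5 animals at both later time points, whereas the TNFSF13B lines crossed.

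The within-animal difference of log2 CPM of TNFRSF13B averaged −1.16 ± 0.57 at week 12 and −1.49 ± 0.97 at week 18 (SD, n = 5). In the 3 animals with the same dates the means were −1.02 and −1.59, and in the other two −1.36 and −1.36. An exact sign-flip test over 5 animals cannot give a two-sided p below 0.0625, which is the value it gave for both. For comparison, 3.22% of all tested features were lower in 5 of 5 animals at week 12 and 3.27% at week 18. The fit without the animal gave a log2 fold change of −1.07 ± 0.80 (SE) at week 12 and −1.38 ± 0.81 at week 18, neither past the threshold (adjusted p = 1.00 in both). With the animal as a block the estimates were −1.15 ± 0.26 (edgeR, adjusted p = 0.204) and −1.38 ± 0.26 (adjusted p = 0.0599), the 19th and 9th smallest p of 12880. In that direction, 3.25% of features passed an unadjusted p under 0.05 at week 12 and 3.78% at week 18. DESeq2 with the same block and features did call the gene at both time points (log2 fold change −1.17, adjusted p = 0.0152, and −1.41, adjusted p = 0.000644), where it called 0.202% and 0.334% of features. The gene was named by the study from these same libraries, so its direction here is not independent evidence. Between week 12 and week 18 the difference was −0.34 ± 0.77 and had no common direction, with 3 animals lower and 2 higher.

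Over the 15 libraries TNFRSF13B was generally lower where B-cell transcripts were fewer, a relation that includes differences between animals. Of 20 B-cell marker genes, 18 were in the table and 17 were tested. Their log2 fold changes had medians of −0.84 at week 12 and −0.82 at week 18, against 0.0037 and 0.00071 over all features. With the animal as a block 14 of the 17 at week 12 and 13 at week 18 were lower at an unadjusted p under 0.05, against 3.25% and 3.78% of all features, 0 were higher, and none passed after adjustment. Of the 20 markers 9 were named by the study from these libraries. The summed B-cell marker level was 339 to 1199 CPM before treatment, 211 to 640 CPM at week 12 and 250 to 556 CPM at week 18, and no marker in the table was at 0 in all libraries. The monocyte markers had medians of −0.20 and 0.21, and the lists for neutrophils, dendritic cells, T cells, NK cells, and platelets with red cells had medians between −0.22 and 0.34. In PBMCs, fewer cells of a type and less RNA per cell cannot be told apart.

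Relative to the mean log2 level of the B-cell markers, TNFRSF13B differed from pre-treatment by −0.42 ± 0.75 at week 12, lower in 3 of 5 animals, and by −0.74 ± 0.84 at week 18, lower in 4 of 5. The lowest of the week 18 values, −2.11, came from Z15303, the animal with 2 counts, and without it the mean was −0.39. At week 12 the mean was −0.20 without Z15303 and −0.24 without Z13076. When the B-cell marker level was added to the blocked edgeR fit, the log2 fold change of TNFRSF13B was −0.53 ± 0.61 (SE, edgeR, adjusted p = 0.999) at week 12 and −0.83 ± 0.56 (adjusted p = 1) at week 18, against −1.15 and −1.38 without it. With the marker level but without the animal, the estimates were 0.73 ± 0.59 (adjusted p = 0.997) and 0.35 ± 0.59 (adjusted p = 0.985), so the sign of the adjusted value depended on the block. Over the 15 libraries TNFRSF13B followed the B-cell markers (Pearson r = 0.78) and the plasma-cell markers (r = 0.78) to the same degree. The 15 libraries came from 5 animals and are not independent. Within animals the week 12 changes did not run in parallel. TNFRSF13B fell most in Z15303 (−1.74) and Z13076 (−1.66), where the mean log2 marker level fell least (−0.45 and −0.55). At week 18 both fell most in Z15303 (−3.09 and −0.99).

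TNFRSF13C, which encodes BAFF-R, was detected in every library but with only 2 to 19 counts, below the filter. Its mean was 1.30 ± 0.446 CPM before treatment, 0.666 ± 0.417 CPM at week 12 and 0.560 ± 0.187 CPM at week 18 (SD, n = 5). In the order Z15228, Z13076, Z15339, Z15303 and Z15408, the libraries held 19, 8, 13, 11 and 8 counts before treatment. At week 12 they held 13, 5, 2, 3 and 6 counts, and at week 18 they held 4, 7, 5, 3 and 3. All 5 animals were below their starting CPM at both later time points. The highest week 18 library, Z13076 at 0.855 CPM, was under the lowest pre-treatment library, Z15408 at 0.892 CPM. These groups therefore did not overlap, but the gap was that between 7 and 8 counts. The exact Poisson intervals of these libraries, 0.344 to 1.76 CPM and 0.385 to 1.76 CPM, overlapped almost wholly. Of the tested features 0.295% had groups that did not overlap. TNFRSF13C was below the filter that defined those features, so this share is not a measure of how rare its gap was.

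Counting noise was a large part of the spread of TNFRSF13C. The coefficient of variation over animals was 34.2%, 62.7% and 33.4% at the 3 time points, and that of counting was 29.1%, 41.5% and 47.7%. Summed over 5 libraries the gene had 59 counts before treatment, 29 at week 12 and 22 at week 18. That is 1.31 CPM with an exact 95% interval of 0.999 to 1.69, 0.685 CPM (0.459 to 0.984) and 0.558 CPM (0.350 to 0.845), intervals that cover counting error only. Within animals the difference of log2 CPM was −0.84 ± 0.66 at week 12 and −0.93 ± 0.54 at week 18 (exact sign-flip p = 0.0625 for both, the smallest possible). The 3 animals with the same dates had means of −1.10 and −1.03, and the other two −0.45 and −0.79. Fitted by edgeR over 20732 features without the filter, the log2 fold change was −0.94 ± 0.50 (SE) at week 12 and −1.20 ± 0.51 at week 18 (adjusted p = 1 for both). With the animal as a block the values were −0.98 ± 0.59 at week 12 and −1.17 ± 0.60 at week 18 (edgeR, adjusted p = 0.981 for the latter).

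Relative to the mean log2 level of the B-cell markers, TNFRSF13C had a difference of −0.10 ± 0.54 at week 12 and −0.17 ± 0.38 at week 18 (SD, n = 5), with 2 and 3 of 5 animals lower. These means were smaller than the spread between the animals. Depth set a limit here, since in Z15339 the gene had 2 counts at week 12 and the within-animal difference of that animal, −1.96, was the lowest of the 5. Without Z15339 the mean difference at week 12 was −0.56, and the mean relative to the markers was 0.09.

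TNFRSF17, which encodes BCMA, showed no direction shared by the animals. Its mean was 4.69 ± 4.14 CPM before treatment, 3.43 ± 2.22 CPM at week 12 and 3.34 ± 2.30 CPM at week 18 (SD, n = 5). Z15339 was highest at every time point, with 11.2 CPM, 6.33 CPM and 7.29 CPM. Z15228 had 6.32 CPM, 3.76 CPM and 3.39 CPM, and Z15408 had 2.79 CPM, 4.44 CPM and 1.90 CPM. Z15303 had 1.78 CPM, 2.16 CPM and 2.28 CPM, and Z13076 had 1.36 CPM, 0.483 CPM and 1.83 CPM. The within-animal difference was −0.36 ± 0.76 at week 12 and −0.25 ± 0.56 at week 18, with 3 animals lower and 2 higher each time, though not the same animals.

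The fit without the animal gave TNFRSF17 a log2 fold change of −0.44 ± 0.63 (SE) at week 12 and −0.49 ± 0.63 at week 18. The blocked log2 fold change of TNFRSF17 was −0.34 ± 0.32 (SE, edgeR, adjusted p = 0.982) at week 12 and −0.36 ± 0.32 (adjusted p = 0.909) at week 18. The plasma-cell markers had median changes of −0.29 and −0.38 (log2) over 8 genes tested, of which 1 and 4 were lower at an unadjusted p under 0.05 with the block, against 3.25% and 3.78% of all features, and 0 were higher. TNFRSF17 relative to those markers differed by −0.10 ± 0.63 and 0.17 ± 0.54 (log2), and across the 15 libraries it followed them with r = 0.83. Relative to the B-cell markers it was higher in 4 of 5 animals at both time points, by 0.38 ± 0.72 and 0.51 ± 0.54. Without Z15408 the week 12 mean was 0.14, and without Z15303 the week 18 mean was 0.30.

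The reads of TACI and BCMA can be set against each other within a library, which removes library scaling. TNFRSF13B made up 84.8% of the summed counts of both genes in Z15228 before treatment, 81.7% at week 12 and 75.7% at week 18. In Z13076 the shares were 78.9%, 75.0% and 57.1%, and in Z15339 they were 62.5%, 59.6% and 58.6%. Z15408 went from 63.8% to 46.3% and 58.5%. The widest shift was in Z15303, from 72.9% (exact 95% interval 59.7 to 83.6) to 36.8% (16.3 to 61.6) and 13.3% (1.66 to 40.5), the latter from 15 counts in all. The TACI share was thus below its starting value in every animal, at week 12 and again at week 18, by little in Z15339. Apart from Z15303 at week 18, each exact 95% interval overlapped that of the same animal before treatment. In Z15228 at week 18, for example, it was 66.5 to 83.5 against 81.0 to 88.2. On the log2 CPM scale the within-animal change of TNFRSF13B minus that of TNFRSF17 was −0.80 ± 0.73 at week 12 and −1.24 ± 1.30 at week 18. Without Z15303 the means were −0.50 and −0.70. This contrast was chosen after the values were seen and is a description.

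TNFSF13B, which encodes BAFF, did not move in a common direction. Its mean was 83.4 ± 21.5 CPM before treatment, 72.2 ± 20.6 CPM at week 12 and 82.9 ± 4.55 CPM at week 18 (SD, n = 5), with 328 to 1031 counts per library. Z13076 went from 87.5 CPM to 39.6 CPM at week 12 and back to 75.6 CPM. Z15339 went from 54.7 CPM to 70.4 CPM and 84.4 CPM. Z15303 went from 115 CPM to 92.3 CPM and 87.3 CPM. Z15228, with 80.1 CPM, 71.6 CPM and 85.5 CPM, and Z15408, with 80.0 CPM, 87.2 CPM and 81.8 CPM, stayed nearer to their starting values. At week 18 the 5 animals lay close together, with a coefficient of variation of 5.48% against 3.92% from counting, while it was 25.7% before treatment and 28.5% at week 12.

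The within-animal difference of TNFSF13B was −0.23 ± 0.57 at week 12, with 3 of 5 animals lower, and 0.03 ± 0.39 at week 18, with 2 lower. The fit without the animal gave a log2 fold change of −0.21 ± 0.20 (SE) at week 12 and −0.02 ± 0.20 at week 18. The blocked log2 fold change was −0.22 ± 0.16 (SE, edgeR, adjusted p = 0.982) at week 12 and 0.01 ± 0.16 (adjusted p = 0.997) at week 18. Z13076 carried most of the week 12 value, which was −0.02 without that animal and 0.05 in the 3 animals with the same dates. In Z13076 the monocyte markers were also lower at week 12, by 0.76 on the log2 scale, while in the other 4 animals they differed by −0.26 to 0.24. Relative to the monocyte markers TNFSF13B differed by −0.08 ± 0.25 at week 12 and −0.16 ± 0.30 at week 18. The library of Z15303 before treatment, the highest in TNFSF13B, also had the highest summed level of 27 type I interferon-stimulated genes, 4420 CPM against 1377 CPM at its own week 12, and the part of these genes in its TNFSF13B values was not tested.

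TNFSF13, which encodes APRIL, was higher at week 18 than before treatment in 5 of 5 animals. Its mean was 119.5 ± 55.3 CPM before treatment, 123.6 ± 38.3 CPM at week 12 and 152.4 ± 47.8 CPM at week 18 (SD, n = 5), with 403 to 1833 counts per library. Z15339 went from 48.1 CPM to 80.3 CPM and 92.4 CPM, Z15408 from 99.8 CPM to 149.0 CPM and 137.5 CPM, and Z15228 from 104.5 CPM to 121.1 CPM and 143.9 CPM. Z15303 was nearly level, at 152.0 CPM, 173.3 CPM and 164.4 CPM. Z13076 alone was lower at week 12, with 193.3 CPM, 94.2 CPM and 223.8 CPM. The time points overlapped as groups, and the animals kept the same order at week 18 as before treatment in 10 of 10 pairs.

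For TNFSF13 the within-animal difference was 0.14 ± 0.70 at week 12, with 4 of 5 animals higher, and 0.44 ± 0.32 at week 18, with 5 of 5 higher (exact sign-flip p = 0.0625, the smallest possible). In all, 3.25% of the tested features were higher in 5 of 5 animals at week 18. The fit without the animal gave a log2 fold change of 0.05 ± 0.31 (SE) at week 12 and 0.34 ± 0.31 at week 18. The blocked log2 fold change was 0.15 ± 0.18 (SE, edgeR, adjusted p = 0.982) at week 12 and 0.41 ± 0.18 (adjusted p = 0.825) at week 18. Of all features 2.07% passed an unadjusted p under 0.05 as higher at week 18. Without Z13076 the blocked week 12 value was 0.41 ± 0.13 (adjusted p = 0.363), and in the 3 animals with the same dates it was 0.50 ± 0.14. TNFSF13 followed the monocyte markers over the 15 libraries (r = 0.84), and TNFSF13B did so less closely (r = 0.66). Relative to those markers TNFSF13 differed by 0.28 ± 0.34 at week 12, higher in 4 of 5 animals, and by 0.24 ± 0.28 at week 18, higher in 3 of 5. With the monocyte marker level in the blocked fit, its log2 fold change was 0.29 ± 0.13 (adjusted p = 0.986) at week 12 and 0.21 ± 0.13 (adjusted p = 0.943) at week 18. TNFSF12, whose gene lies beside TNFSF13 in primates and which encodes the cytokine TWEAK, had blocked log2 fold changes of 0.07 ± 0.16 and 0.08 ± 0.16.

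TNFSF13 gained on TNFSF13B in every animal. The ratio of TNFSF13 to TNFSF13B counts in a library does not depend on library scaling, and it is compared here only over time since the genes differ in length. It went from 1.30 to 1.69 and 1.68 in Z15228, from 2.21 to 2.38 and 2.96 in Z13076, and from 0.880 to 1.14 and 1.10 in Z15339. In Z15303 it went from 1.33 to 1.88 and 1.88, and in Z15408 from 1.25 to 1.71 and 1.68. Every animal was above its own pre-treatment ratio at both later time points, while the groups overlapped because the animals started apart. The ratio at week 12 was 1.08-fold to 1.42-fold of the starting value, and at week 18 it was 1.25-fold to 1.42-fold. The 1.08-fold value was that of Z13076, from 780 TNFSF13 and 328 TNFSF13B counts at week 12. Counting error of the ratios was not computed, so a gain this small is uncertain. On the log2 scale the within-animal change of TNFSF13 minus that of TNFSF13B was 0.36 ± 0.15 at week 12 and 0.41 ± 0.07 at week 18, and 0.05 ± 0.15 between the later time points. In the 3 animals with the same dates it was 0.44 and 0.42. A change above that of TNFSF13B in 5 of 5 animals was found for 2.83% of the other tested features at week 12 and 0.815% at week 18. This ratio was also chosen after the values were seen, and no test was made of it.

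**Figure D2:**
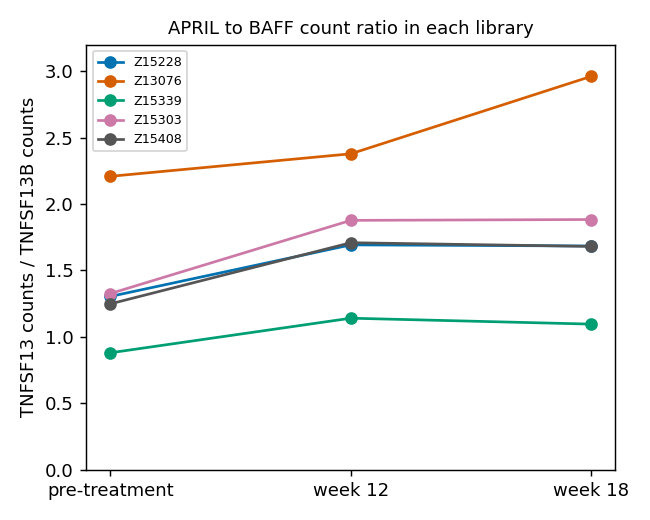
Ratio of TNFSF13 (APRIL) counts to TNFSF13B (BAFF) counts in each library on a linear axis that starts at 0, with 1 line per animal. All 5 lines are higher at week 12 and at week 18 than before treatment, and Z13076 has the highest ratio, up to 2.96.

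Setting receptors against ligands, the change of TNFRSF13B lay below that of both ligands in every animal. The within-animal change of TNFRSF13B minus that of TNFSF13B was −0.93 ± 0.45 at week 12 and −1.52 ± 0.79 at week 18 (log2, SD, n = 5). Against TNFSF13 it was −1.30 ± 0.54 and −1.93 ± 0.82. All 5 animals were below 0 in the 4 comparisons. Among the other tested features, 0.365% at week 12 and 1.71% at week 18 had a signed change below that of TNFSF13B in 5 of 5 animals. Against TNFSF13 the shares were 1.18% and 31.1%. The last share shows how little a count of 5 of 5 below TNFSF13 separates a gene at week 18. Between week 12 and week 18, too, TNFRSF13B minus ligand was below 0 in 5 of 5 animals, by −0.59 ± 0.48 for TNFSF13B and −0.64 ± 0.47 for TNFSF13, against 7.88% and 6.97% of features. Over this interval TNFRSF13B itself was higher in Z13076 (0.67) and Z15339 (0.14), where both ligands rose more.

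For TNFRSF13C the receptor minus ligand values were −0.61 ± 1.09 and −0.96 ± 0.79 against TNFSF13B, below 0 in 4 of 5 animals at both time points. Against TNFSF13 they were −0.97 ± 1.18 in 4 of 5 and −1.37 ± 0.74 in 5 of 5. The exception was Z13076, whose week 12 library also had its lowest counts of both ligands. Week 12 rested largely on Z15339 and its 2 counts: without that animal the week 12 means were −0.18 against TNFSF13B and −0.54 against TNFSF13, and without Z13076 that against TNFSF13B was −0.94. For TNFRSF17 the values against TNFSF13B were −0.13 ± 0.73 and −0.28 ± 0.89, and against TNFSF13 they were −0.49 ± 0.71 and −0.69 ± 0.83, each below 0 in 3 of 5 animals. Without Z15339 the week 12 means of TNFRSF17 were 0.13 and −0.23.

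**Figure D3:**
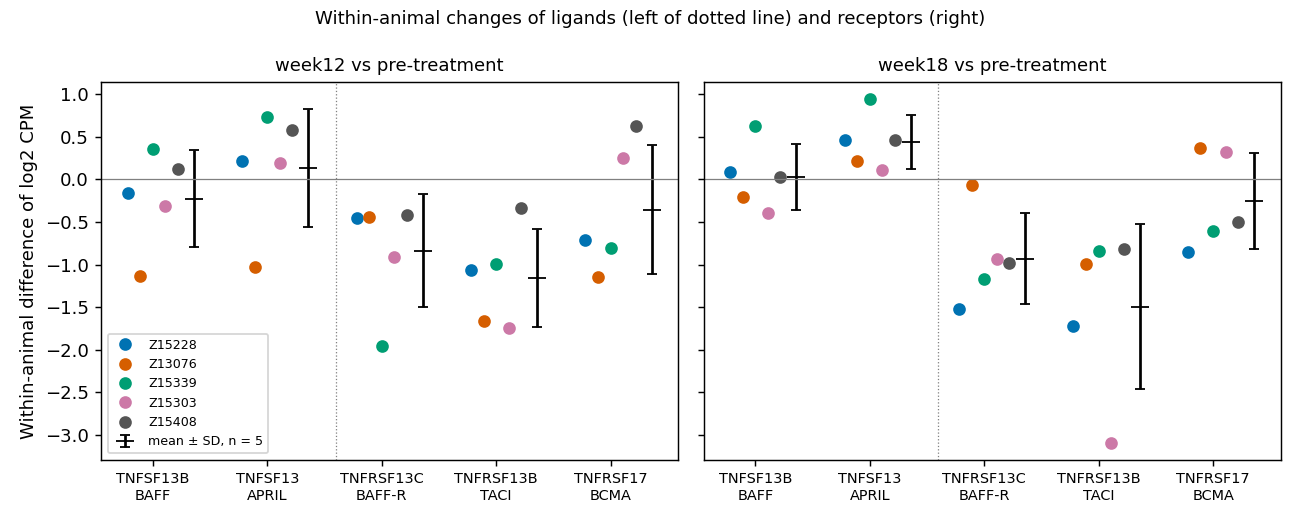
Within-animal differences of log2 CPM from pre-treatment at week 12 (left) and week 18 (right) for the 2 ligands and the 3 receptors. Each coloured point is an animal, and black marks are the mean ± SD of 5 animals. All points of TNFRSF13C and TNFRSF13B lie below 0 in both panels, those of TNFRSF17 and TNFSF13B lie on both sides, and those of TNFSF13 at week 18 lie above 0.

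Differences between animals were a large part of the variation for most members. The animal accounted for 75.0% of the variance of log2 CPM of TNFRSF13B, the time point for 17.8% and the rest for 7.17%. For TNFRSF17 the shares were 81.3%, 2.32% and 16.4%, and for TNFSF13 they were 62.4%, 11.1% and 26.4%. The time point took the largest share in TNFRSF13C, 49.1%, and the smallest in TNFRSF17. The biological coefficient of variation of TNFRSF13B was 86.1% without and 22.4% with the block, while that common to all features was 29.3% and 16.9%. For TNFRSF17 it was 67.2% and 28.2%, for TNFSF13 34.8% and 20.1%, and for TNFSF13B 23.2% and 17.9%. Z15228 and Z15339 had the most TNFRSF13B and Z15303 the least at every time point, although Z15303 differed little from Z15408 and Z13076 before treatment. The order of the animals was kept in 9 of 10 pairs from pre-treatment to either later time point for TNFRSF13B and TNFRSF17, but in 4 and 5 of 10 pairs for TNFRSF13C.

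**Figure D4:**
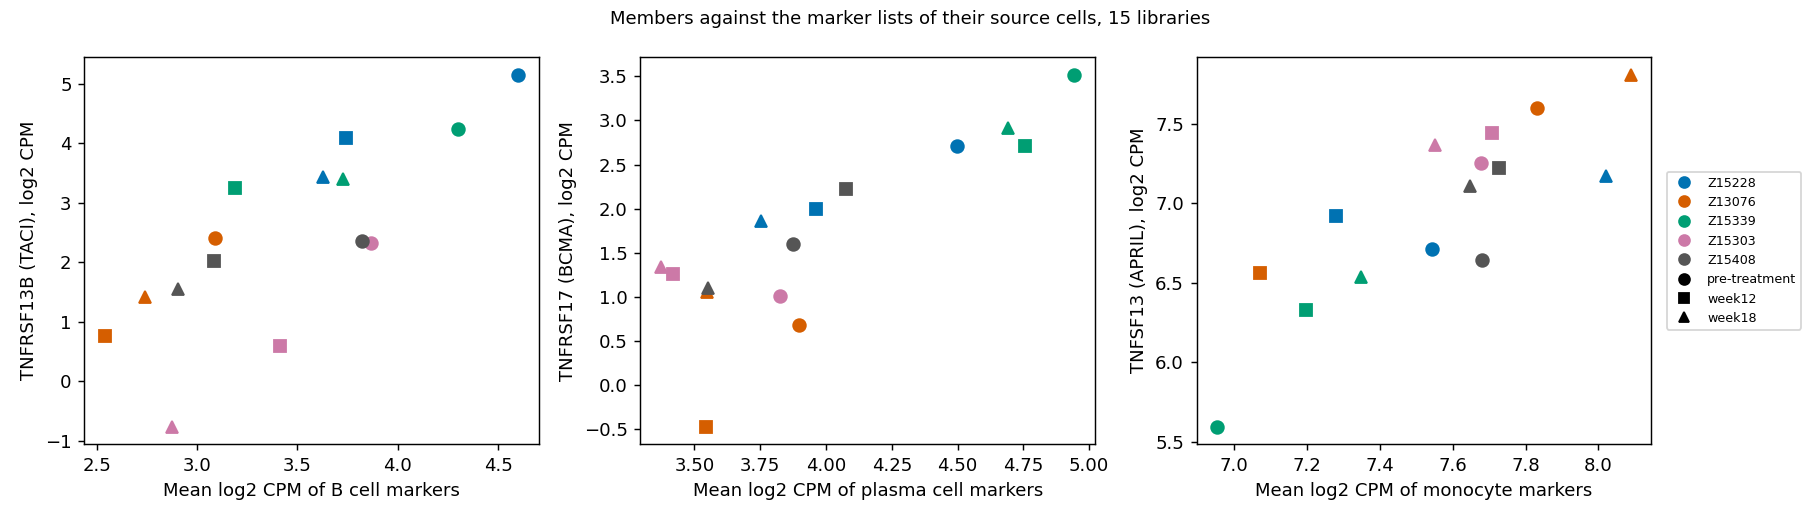
Log2 CPM of TNFRSF13B, TNFRSF17 and TNFSF13 against the mean log2 CPM of B-cell, plasma-cell and monocyte markers in the 15 libraries. Colours are animals and shapes are time points. The points run upward in each panel (r = 0.78, 0.83 and 0.84), and the lowest TNFRSF13B value is the week 18 library of Z15303.

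By the correlation of log2 CPM over the 15 libraries, the genes most like each member differed between ligands and receptors. TNFSF13B was closest to SPI1 (r = 0.89), the PU.1 transcription factor of myeloid and B cells, followed by PPP1R9A (r = 0.88), EHBP1L1 (r = 0.86) and WAS (r = 0.86), the actin regulator of blood cells. The genes like TNFSF13 included PNPLA2 (r = 0.88), CLEC4E (r = 0.87), the Mincle receptor of macrophages, and IL1R2 (r = 0.87), the decoy receptor for interleukin-1. TNFRSF13B was closest to ZBTB32 (r = 0.96), a transcriptional repressor found in memory B cells, and to CYB561A3 (r = 0.94), DENND5B (r = 0.92) and PIK3R6 (r = 0.90). ZBTB32 itself had 20.8 ± 20.6 CPM before treatment, 12.7 ± 11.5 CPM at week 12 and 9.55 ± 9.11 CPM at week 18, with a blocked log2 fold change of −0.70 ± 0.25 (SE, edgeR, adjusted p = 0.760) and −1.10 ± 0.26 (adjusted p = 0.145). TNFRSF13C was closest to RAB30 (r = 0.90), MEF2C (r = 0.78), a transcription factor needed for B-cell growth, ENTPD5 (r = 0.77) and VAV2 (r = 0.76), an exchange factor in B-cell receptor signalling. VAV2 had blocked log2 fold changes of −0.97 ± 0.21 (adjusted p = 0.1699) and −1.20 ± 0.21 (adjusted p = 0.0534) and was lower in all 5 animals each time. TNFRSF17 was closest to ZNF285 (r = 0.90), the immunoglobulin lambda segment IGLV11.55 (r = 0.87), the mitotic cyclin CCNB2 (r = 0.87) and the T-cell receptor alpha segment TRAV22 (r = 0.84). These are the highest of about 10772 candidates per member, over libraries that share animals, and are a description. Some were near the floor: the lowest libraries had 0 CPM of PPP1R9A, IGLV11.55 and DENND5B, and 0.483 CPM of CCNB2.

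Among 24 adaptors and NF-kappa-B genes, 23 were tested, and their changes had medians of −0.06 (log2) and −0.09 at the later time points. With the block 2 of the 23 were lower at an unadjusted p under 0.05 at week 12 and 1 at week 18, against 3.25% and 3.78% of all features, 0 were higher, and 0 passed after adjustment. REL, the NF-kappa-B subunit c-Rel, had −0.42 ± 0.13 (SE, edgeR with block, adjusted p = 0.569) and −0.34 ± 0.13 (adjusted p = 0.746), with all 5 animals below their starting value each time. TRAF3, the adaptor that restrains the noncanonical pathway, had −0.32 ± 0.15 (adjusted p = 0.982) at week 12 and −0.07 ± 0.15 at week 18. Of 12 genes for processing and binding of the ligands, such as the protease FURIN and the syndecans, 9 were tested and 0 passed an unadjusted p under 0.05 in either direction.

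Of 9 survival and target genes 8 were tested, and 2 of them were lower at an unadjusted p under 0.05 with the block at both time points, against 3.25% and 3.78% of all features. CR2, the complement receptor CD21 of mature B cells, had 17.2 ± 2.47 CPM before treatment, 9.88 ± 5.02 CPM at week 12 and 12.3 ± 3.95 CPM at week 18. Its blocked log2 fold change was −0.91 ± 0.23 (SE, edgeR, adjusted p = 0.362) and −0.57 ± 0.23 (adjusted p = 0.814), with 4 of 5 animals lower. FCER2, the low-affinity IgE receptor CD23, was lower in all 5 animals each time, by −0.44 ± 0.15 and −0.39 ± 0.15. Both genes belong to B cells, as do the markers above.

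Within the wider tumor necrosis factor and receptor superfamily, 34 genes were tested including 4 of the members. TNFRSF13B had the lowest log2 fold change of the 34 at both later time points and TNFSF13 the highest at week 18. TNFRSF13C, below the filter, was not ranked. Its blocked values in the separate fit without the filter were −0.98 ± 0.59 (SE) and −1.17 ± 0.60. The SE spans the values of both TNFRSF13B and CD40, so its place among these genes is not resolved. Of the other superfamily genes, 29 were tested outside the ligand-processing list, and the median of their changes was 0.04 (log2) at either later time point. CD40 and RELT were lower at an unadjusted p under 0.05 with the block at week 12, CD40 and FAS were lower at week 18, TNFRSF1A was higher at week 18 (against 2.07% of all features higher, and 3.25% and 3.78% lower), and 0 passed after adjustment. CD40, the receptor through which T cells activate B cells, stood next to TNFRSF13B, with 17.0 ± 5.84 CPM, 11.9 ± 3.98 CPM and 10.6 ± 2.50 CPM. Its blocked log2 fold change was −0.51 ± 0.17 (adjusted p = 0.687) and −0.65 ± 0.17 (adjusted p = 0.309), lower in 5 of 5 animals each time. By contrast CD27, a receptor of T cells and memory B cells, had 0.16 ± 0.13 and 0.04 ± 0.13. LTB, a lymphotoxin subunit, had 0.05 ± 0.12 and 0.19 ± 0.12, and TNF itself had −0.40 ± 0.24 and 0.04 ± 0.23.

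**Figure D5:**
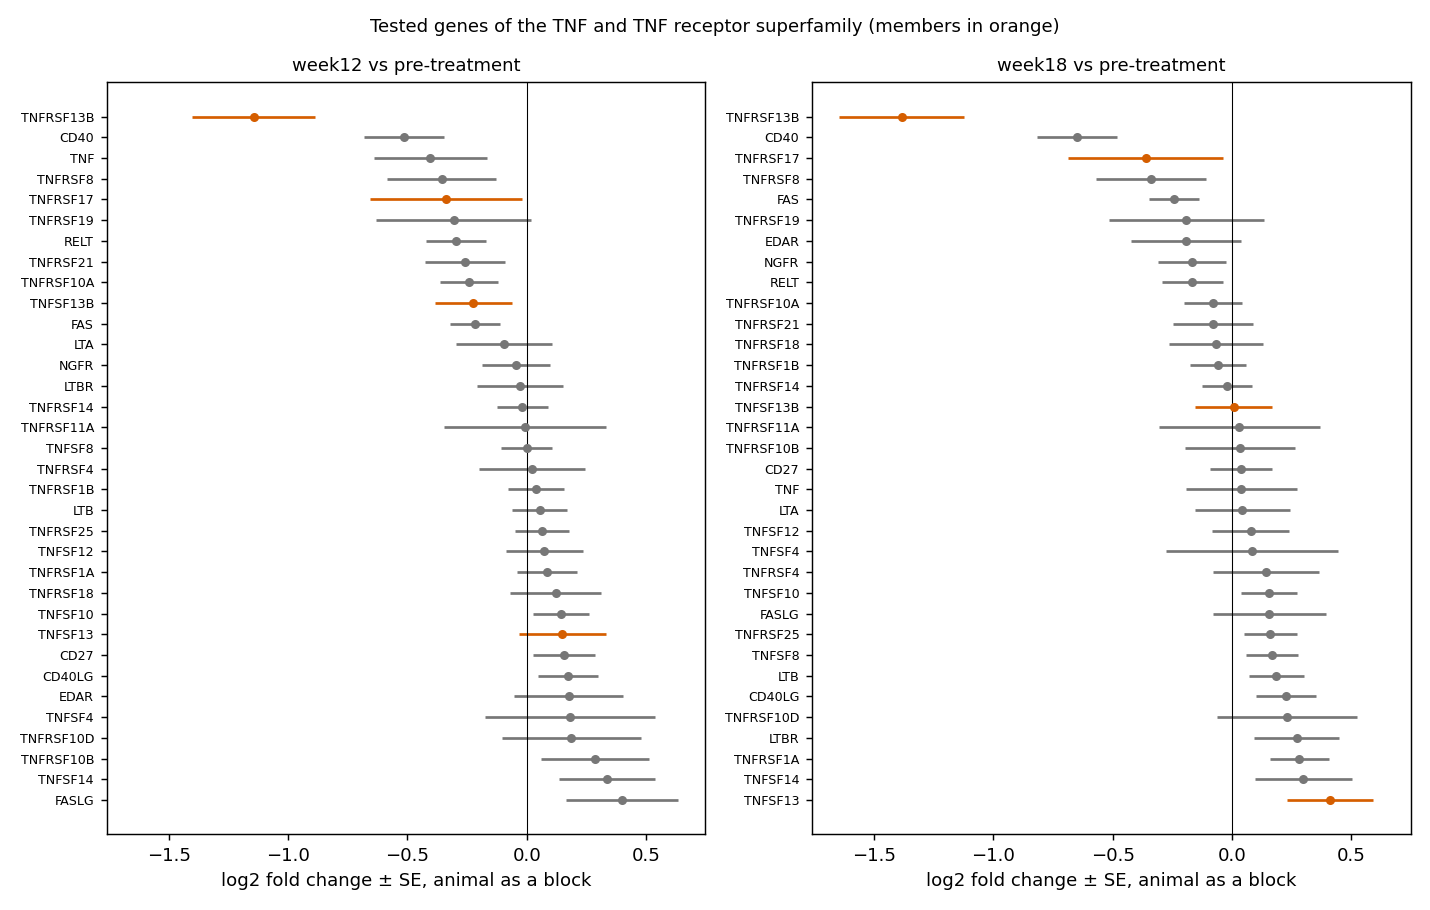
Log2 fold change ± SE from the edgeR fit with the animal as a block for the 34 tested genes of the tumor necrosis factor and receptor superfamily, ordered from lowest to highest at week 12 (left) and week 18 (right), with members in orange. Among the genes shown, TNFRSF13B is lowest at −1.15 and −1.38, CD40 is next, and TNFSF13 is at the upper end at week 18 (0.41). TNFRSF13C was below the filter on low counts and is not shown.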

How the data were processed

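PBMC RNA was amplified with SMART-Seq v4, and per the labels and the study's methods reads were aligned with STAR 2.7.9a to the Ensembl release 95 annotation of Macaca nemestrina. The authors deposited raw gene counts (not normalised) for 15 libraries. Which strand column they took was not given in the sources used here. Reads of overlapping or antisense genes cannot be told apart. Genes are named as in the table, which gives no coordinates or lengths, so levels were compared over time and not between genes. Counts were scaled by TMM, filtered with filterByExpr (minimum count 10, leaving 12880 features) and tested with the edgeR 4.0.16 quasi-likelihood test in R 4.3.3, fitting time point alone, with adjustment by Benjamini-Hochberg over all features (threshold 0.05). The unit log2 CPM used a prior count of 2.

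The alternative with the animal as a block, in which samples pair because they come from the same animal by their labels, is given beside the results: deviations of 15 same-animal pairs of libraries correlated at 0.551 on average, and 60 pairs from different animals at −0.137. DESeq2 1.42.0, limma 3.58.1, other filters, scalings, marker levels as covariates and each animal left out were further alternatives. The blocked edgeR fit without the filter, DESeq2 with its own filtering, the B-cell marker level without the block, and the APRIL and BAFF comparison were added after seeing the data. P-values of the fit without the animal treat the 15 libraries as independent and measure the spread between libraries of a time point. Those of the blocked fit measure the spread of changes within animals. Each animal gave a single library per time point. The members, gene lists and tests were chosen with earlier results of these data known. Named genes were the members, up to 4 genes per pathway list and comparison with an unadjusted p under 0.05 in the blocked fit, 5 superfamily genes whatever their value, and the 4 genes most correlated with each member. Of these, 1 gene is not reported here. The scripts were tested on simulated counts. Intervals of counts are exact Poisson (95%) and those of shares exact Clopper-Pearson.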

Additional observations from a re-analysis of the deposited data

Results flagged for a closer look

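In 30 sets of 5 animals (members' levels per time point and within-animal differences), 2 had a single animal far from the others by Dixon's criterion at the 95% level, where chance gives about 1 in 20. TNFSF13 at week 18 vs. week 12 had a within-animal difference of 1.25 in Z13076, while the other 4 animals lay between −0.12 and 0.25. TNFRSF17 at week 18 stood at 7.29 CPM in Z15339, against 1.83 to 3.39 CPM in the other 4 animals.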

How the results depend on the processing

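With the animal as a replicate block, edgeR called 1 feature instead of 0 at week 12 vs. pre-treatment and 1 at week 18 vs. pre-treatment, neither of them a member. DESeq2 with the block called 26 and 43 (27 and 50 with its own independent filtering), and 1 (8) at week 18 vs. week 12, while DESeq2 without the block called 1 at week 12. The blocked edgeR fit without the filter on low counts called 83, 136 and 5, and with only the 3 animals of the same dates 7 and 7. With each animal left out the count ranged from 0 to 6 at week 12 and from 0 to 17 at week 18, the highest without Z13076. The fold changes of TNFRSF13B were −1.17 to −1.13 at week 12 and −1.43 to −1.37 at week 18 where an alternative called it: the blocked edgeR fit without the filter (−1.13, adjusted p = 0.000198, and −1.37, 5.51e-07), DESeq2 with the block (−1.17 and −1.41; with its own filtering −1.17, 0.0289, and −1.42, 0.00183), and the block without Z13076 at week 18 (−1.43, 0.0446). The block without any other single animal left the week 18 adjusted p between 0.128 and 0.747.

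No value that an alternative gave with the opposite sign was itself called; where a marker level or a left-out animal did so, the cause was not tested. TNFSF13B at week 12 was 0.0495 in the 3 animals of the same dates. TNFSF13B at week 18, −0.02 without the block, was 0.0178 with limma, 0.0067 with the block in edgeR, 0.0103 and 0.0104 in DESeq2, 0.015 without the filter, 0.0847 in the 3 animals, 0.0452 with the B-cell marker level with or without the block, −0.14 to 0.105 with an animal left out and, with the block, 0.0706 without Z13076, 0.105 without Z15303 and 0.0109 without Z15408. TNFSF13 at week 12 ranged from −0.0814 to 0.367 with an animal left out and was −0.24 with the B-cell marker level and no block, and −0.0185 at week 18. The largest shifts were in that last fit, which gave TNFRSF13B 0.73 and 0.35 in place of −1.07 and −1.38, and TNFRSF17 1.13 and 1.00 in place of −0.44 and −0.49 (0.45 and 0.39 with the block). At week 18 vs. week 12 the monocyte marker level gave TNFSF13B −0.0649 and TNFSF13 −0.0823, and TNFRSF17, −0.05 without the block, was 0.10 with limma, 0.0055 with DESeq2's own filtering −0.229 to 0.211 with an animal left out and, with the block, 0.0091 without Z15228 and 0.34 without Z15408. The differences between pairs of members moved by less than their spread over animals in all 168 recomputed values. Leaving animals out, as was done here, cannot shift a mean by that much. Those values could only count as unmoved and are no measure of stability. Without Z15339, for example, the week 12 mean of TNFRSF13C minus TNFSF13B went from −0.61 to −0.18. The 33 recomputed values of TNFRSF13C were also counted as unchanged. Its within-animal differences met that rule, with the same limit, while its fitted fold changes kept their sign and were not called. Depth limits TNFRSF13C above all, at 2 to 19 counts per library.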
